A study of Homo sapiens with 33 samples.

Results

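The Toll-like receptor genes were examined in human leukaemia cell lines under a Wnt pathway activator and under glucocorticoids. The set holds 10 of the 62446 genes in the count tables: the receptors TLR1, TLR2, TLR3, TLR4, TLR6, TLR7, TLR9 and TLR10, the signalling adaptor MYD88, and CD180, a receptor-like relative found on B cells. The family was chosen on the prednisolone fold change of TLR10 in the TLE1 knockout, which was among the largest falls there, so the values of that comparison are given below as a description, with no test. Gene identifiers were matched to the 10 symbols and all 10 were found.

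RNA was sequenced from 33 libraries, 3 in each of 11 groups, all of them established acute lymphoblastic leukaemia (ALL) lines. Nalm6 is a B-cell precursor line, the TLE1 knockout is a Nalm6 derivative targeted at the co-repressor gene TLE1, and CEM is a T-cell line. Nalm6 libraries came from untreated cells, from cells given CHIR-99021 (a GSK3 inhibitor used to activate Wnt signalling) at 0.5 µM, and from cells given prednisolone at 5 µM. A separately titled set of Nalm6 libraries pairs an untreated group with dexamethasone at 100 nM. The knockout has an untreated group, prednisolone at 5 µM and dexamethasone at 100 nM, and no untreated knockout group is titled for the dexamethasone set. CEM has an untreated group, CHIR-99021 at 2 µM and prednisolone at 10 µM. Treatments lasted 24 h. Nalm6 and knockout cells grew in charcoal-stripped serum, which is low in steroids, so the untreated groups share that medium. Whether the knockout is 1 clone is not stated. The series text counts 3 independent experiments, but where nothing ties a library to its own culture the p-values measure only the spread between these libraries. One protocol field and the series text disagree on which line received which drug, and the sample titles were followed.

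Library totals ran from 25292579 to 61930057 gene counts, and 3 counts, the upper limit for a gene at 0, equal 0.0484 to 0.119 counts per 1000000 gene counts (CPM); such limits cover counting error only. All 10 B-lineage markers checked reached 1 CPM in each Nalm6 and knockout group, and all 9 T-lineage markers found did so in CEM. In each CEM group 5 of the 10 B-lineage markers reached 1 CPM as well, with DNTT at 74.9 to 141 CPM. Of the 9 T-lineage markers 2 or 3 did so in each Nalm6 and knockout group. Among them LCK was at 17.8 to 38.9 CPM in parental Nalm6 and 20.9 to 44.4 CPM in the knockout. Of 10 myeloid markers, CD33 was at 4.51 to 8.88 CPM and LYZ at 0.96 to 4.93 CPM in parental Nalm6 and MPO reached 2.15 CPM, levels like those of the receptors; CD14 was at most 0.281 CPM and S100A8 at 0 in every Nalm6 and knockout library. The TLE1 transcript was present in the knockout, where untreated libraries held 25.4, 24.0 and 24.0 CPM. The untreated parental ones outside the dexamethasone set held 30.2, 34.0 and 31.8 CPM, a log2 fold change of -0.36 ± 0.06 (SE, edgeR adjusted p = 0.002). Those of the dexamethasone set held 26.0, 27.2 and 27.9 CPM, nearer the knockout, and 13 of 14 alternatives made the call. The TLE1 transcript was higher under glucocorticoids in both lines, at 54.5 to 69.0 CPM in the knockout and 110 to 116 CPM in parental cells under prednisolone. Under dexamethasone it was at 55.3 to 59.0 and 129 to 134 CPM. A targeted gene can keep its transcript, so this level checks the knockout label only in part. These are bulk libraries, in which fewer cells expressing a gene and less RNA per cell cannot be told apart.

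Toll-like receptors are innate immune sensors that recognise conserved microbial molecules. TLR1, TLR2, TLR4, TLR6 and TLR10 sit at the cell surface, where TLR2 pairs with TLR1 or TLR6 to sense lipopeptides and TLR4 works with MD-2 (LY96) to sense lipopolysaccharide. TLR3, TLR7 and TLR9 sense nucleic acids in endosomes. All of these receptors with a known signalling route except TLR3 use MYD88, whereas TLR3 uses TICAM1. CD180 lacks a signalling domain of that kind and is held at the B-cell surface by MD-1 (LY86). Glucocorticoids such as prednisolone and dexamethasone act through a nuclear receptor and are standard drugs in ALL.

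TLR10, TLR1 and TLR6 are neighbours on chromosome 4 on the same strand, and in GENCODE v29 exons of TLR1 and TLR6 overlap, so reads there could not be given to either. TLR4 on chromosome 9 and TLR9 on chromosome 3 each overlap another gene model on their own strand. TLR2 and TLR3 also lie on chromosome 4, MYD88 on chromosome 3, CD180 on chromosome 5 and TLR7 on chromosome X. Promoter sequences from RefSeq (GRCh38.p14) were given for 7 of the 10 genes. Those of TLR4, TLR6 and CD180, which fell under both glucocorticoids in parental Nalm6, are shown, as the 250 bases before the gene start. TLR3 also fell under both and is among the 7, but its promoter is not shown. Capitals mark CTTTGAA, a word bound by the TCF/LEF factors of the Wnt pathway, and GAGGAA, a core word of ETS factors such as PU.1, on either strand (TTCAAAG and TTCCTC on the other strand).
TLR4 (chr9:117704153-117704402, plus strand): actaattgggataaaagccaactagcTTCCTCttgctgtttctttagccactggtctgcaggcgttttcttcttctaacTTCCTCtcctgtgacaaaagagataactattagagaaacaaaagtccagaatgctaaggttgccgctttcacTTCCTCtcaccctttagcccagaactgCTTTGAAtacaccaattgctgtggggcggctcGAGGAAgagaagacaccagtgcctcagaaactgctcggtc
TLR6 (chr4:38856818-38857067, minus strand): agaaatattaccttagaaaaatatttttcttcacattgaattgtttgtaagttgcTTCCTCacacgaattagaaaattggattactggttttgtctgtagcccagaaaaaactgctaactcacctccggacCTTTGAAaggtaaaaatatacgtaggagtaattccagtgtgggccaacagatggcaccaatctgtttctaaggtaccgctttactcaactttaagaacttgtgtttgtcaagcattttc
CD180 (chr5:67196800-67197049, minus strand): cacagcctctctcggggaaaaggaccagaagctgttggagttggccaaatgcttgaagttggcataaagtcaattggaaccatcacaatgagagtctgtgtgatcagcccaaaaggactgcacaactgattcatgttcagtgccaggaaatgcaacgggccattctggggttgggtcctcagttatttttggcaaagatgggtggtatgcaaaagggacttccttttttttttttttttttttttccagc
CTTTGAA was found in the 300-base promoters of TLR4 and TLR6 and in no other of the 7, against 4.43% of 35116 promoters of that length. GAGGAA was found in 4 of the 7 (MYD88, TLR4, TLR6 and TLR9), against 27.9% of all promoters. The words do not overlap each other in the stretches shown, and CD180 holds neither. The full palindromic glucocorticoid response element was in 0.00285% of promoters and its half-site TGTTCT in 14.8%, both searched on either strand, and none of the 7 held either. These matches describe letters in a short window and say nothing of binding.

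In the first untreated Nalm6 group 6 of the receptors were above 3 counts in every library, at low levels. Per kilobase of exon, MYD88 stood highest at 6.83 ± 0.158 CPM per kb (SD, n = 3), followed by TLR1 at 1.74 ± 0.0884 and CD180 at 1.27 ± 0.0267. TLR4 and TLR3 were next, at 0.673 ± 0.0356 and 0.671 ± 0.0448 CPM per kb, and did not differ beyond their spread. TLR10 (0.588 ± 0.0650), TLR6 (0.316 ± 0.0482) and TLR7 (0.0859 ± 0.0206 CPM per kb) were lower. TLR2 had 6 counts in all 24 Nalm6 and knockout libraries together and TLR9 had 0, so neither was tested there. Of the receptors outside the set, TLR8 was at 0 in every library and TLR5 reached at most 17 counts in any library.

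**Figure D1:**
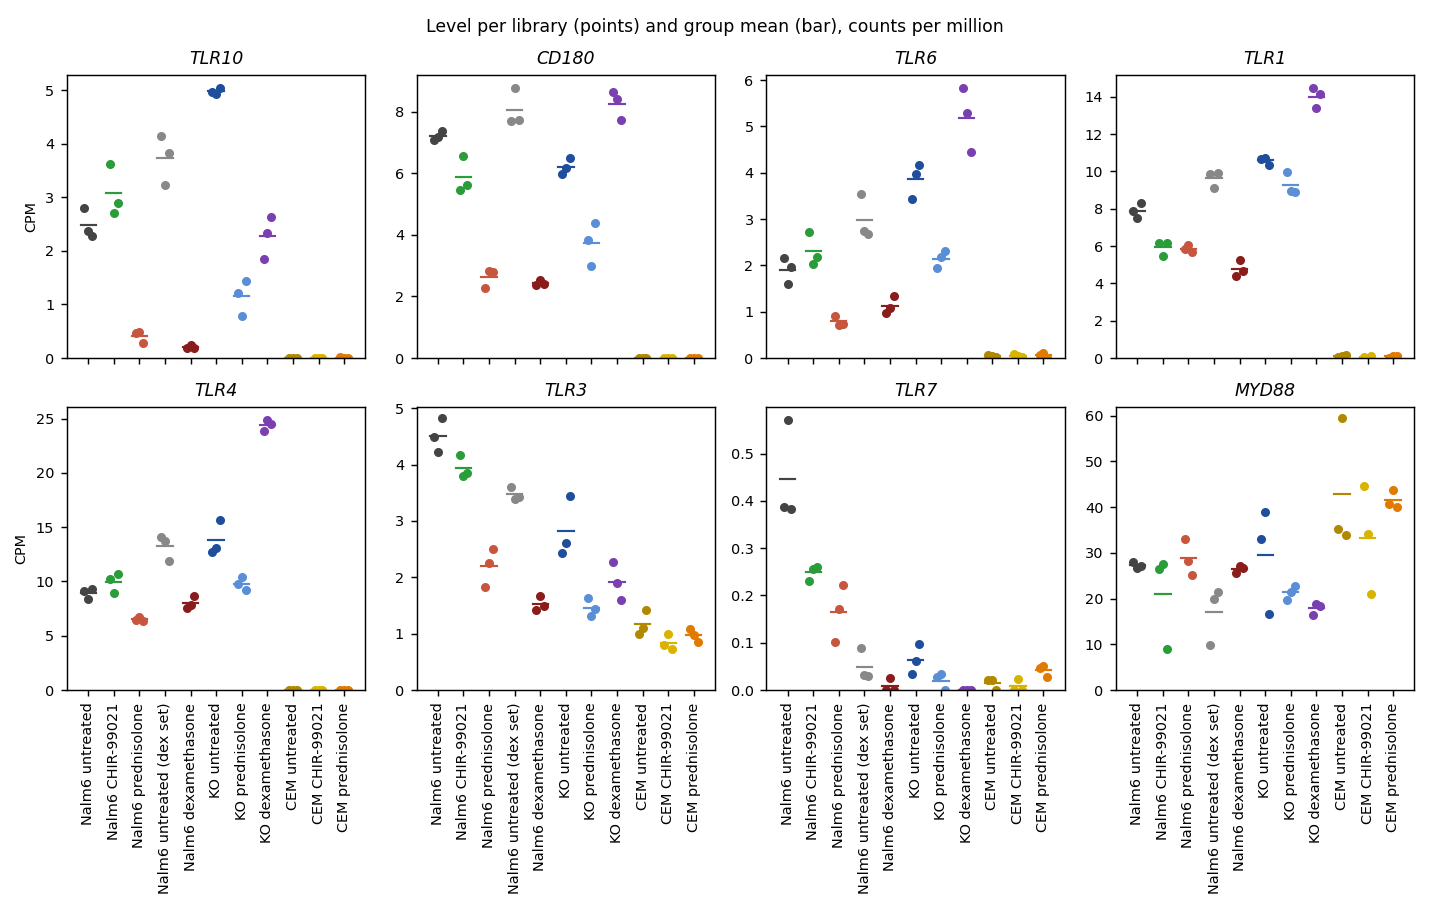
Level of 8 members in each of the 33 libraries (vertical axis, CPM, starting at 0; points are libraries, short bars are means of 3) by group (horizontal axis). TLR10 and CD180 are lower in every glucocorticoid-treated parental library than in its untreated group, TLR4 is highest in the 3 knockout dexamethasone libraries, and CEM lies at or near 0 for all but TLR3 and MYD88.

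The first question is how the glucocorticoids changed the receptors in parental Nalm6. Under prednisolone 7 of the 10 genes fell (TLR1, TLR3, TLR4, TLR6, TLR7, TLR10 and CD180), MYD88 did not pass the test, and TLR2 and TLR9 were too low to test. In all genes tested, 54.8% were called and 26.1% were called lower. TLR10, whose ligand and signalling role are debated, stood at 2.79, 2.37 and 2.28 CPM untreated and at 0.475, 0.493 and 0.273 CPM under prednisolone. The treated libraries all lay below the untreated ones, a 6.31-fold fall (log2 fold change -2.66 ± 0.21, edgeR adjusted p = 9.16e-09). CD180 went from 7.09, 7.18 and 7.38 CPM to 2.27, 2.83 and 2.78 CPM (-1.46 ± 0.10, edgeR adjusted p = 1.38e-09). TLR6, a partner of TLR2, went from 2.16, 1.59 and 1.97 CPM to 0.917, 0.721 and 0.734 CPM (-1.34 ± 0.19, edgeR adjusted p = 9.0e-06). No library of either group crossed into the other for CD180 or TLR6. TLR3, the sensor of double-stranded RNA, went from 4.49, 4.22 and 4.82 CPM to 1.83, 2.26 and 2.51 CPM (-1.03 ± 0.12, edgeR adjusted p = 1.70e-06). TLR1 and TLR4 moved least among the 7: TLR1 fell from 7.90, 7.49 and 8.29 to 5.84, 6.04 and 5.70 CPM (-0.46 ± 0.08), and TLR4 from 9.07, 8.41 and 9.32 to 6.42, 6.70 and 6.38 CPM (-0.49 ± 0.08). TLR7, a sensor of single-stranded RNA, fell from 24, 28 and 22 counts to 3, 9 and 13 counts (-1.34 ± 0.34, edgeR adjusted p = 0.00299); the other untreated Nalm6 group held 4, 1 and 1 counts, below the treated libraries in CPM, so the direction of TLR7 depends on the untreated group. MYD88 was at 27.9, 26.7 and 27.1 CPM untreated and 33.0, 28.3 and 25.0 CPM under prednisolone, with overlapping groups (0.03 ± 0.07, edgeR adjusted p = 0.73); against the other untreated Nalm6 group, chosen after seeing the data, it was called higher (0.65), and TLR1, TLR3, TLR4, TLR6, TLR10 and CD180 were called lower there too. The summed B-lineage markers also went from between 3031 and 3041 CPM to between 2670 and 2758 CPM, with single markers moving in both directions. PAX5 went from between 704 and 710 to between 485 and 490 CPM. CD22 went from between 57.15 and 63.7 to between 14.2 and 15.2 CPM. CD79A rose from between 57.42 and 61.55 to between 96.4 and 110 CPM. CD79B rose from between 129 and 137 to between 182 and 201 CPM. The part of these markers in the receptor falls was not tested. The myeloid sum overlapped (7.44 to 9.38 and 7.47 to 9.0 CPM).

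Dexamethasone, measured against its own untreated set, lowered 6 of the 10 genes and raised MYD88, beside 60.5% of all genes called, 30.2% higher and 30.2% lower. TLR10 went from 4.14, 3.23 and 3.83 CPM to 0.185, 0.246 and 0.190 CPM, or 8, 10 and 8 counts. The groups lay far apart, and the fall was 18.4-fold (-4.20 ± 0.21 on the log2 scale; edgeR adjusted p = 4.74e-10). CD180 went from 7.70, 8.77 and 7.72 CPM to 2.36, 2.53 and 2.40 CPM (-1.76 ± 0.10, edgeR adjusted p = 1.43e-09). TLR6 fell by 1.46 ± 0.17 and TLR3 by 1.23 ± 0.13 on the log2 scale, each without overlap. TLR1 fell from 9.88, 9.11 and 9.94 to 4.37, 5.24 and 4.65 CPM (-1.06 ± 0.09), and TLR4 from 14.1, 13.7 and 11.9 to 7.59, 7.80 and 8.69 CPM (-0.76 ± 0.09, edgeR adjusted p = 2.89e-06). TLR7 held 6 counts untreated and 1 under dexamethasone, too few to test. MYD88 was higher, at 25.7, 27.2 and 26.7 CPM against 9.84, 19.9 and 21.3 CPM (0.63 ± 0.18, edgeR adjusted p = 0.00778). The MYD88 call was lost under DESeq2 (adjusted p = 0.113) and with all 11 groups fitted together (edgeR adjusted p = 0.0787). The glucocorticoids differ in drug, dose and set, so their values stand side by side and are not compared. Summed myeloid markers were 14.3 to 15.4 CPM in the untreated dexamethasone set and 10.0 to 10.5 CPM under dexamethasone; in that sum LYZ went from between 4.49 and 4.93 to between 0.960 and 1.04 CPM and MPO from between 1.67 and 2.15 to between 0.142 and 0.208 CPM, while CD33 went from between 7.37 and 8.34 to between 8.59 and 8.88 CPM. Their part was not tested. Against the other untreated Nalm6 group, a comparison chosen after seeing the data, the TLR4 fall (-0.11, edgeR adjusted p = 0.159) and the MYD88 rise were not called, and the other 5 calls were made.

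**Figure D2:**
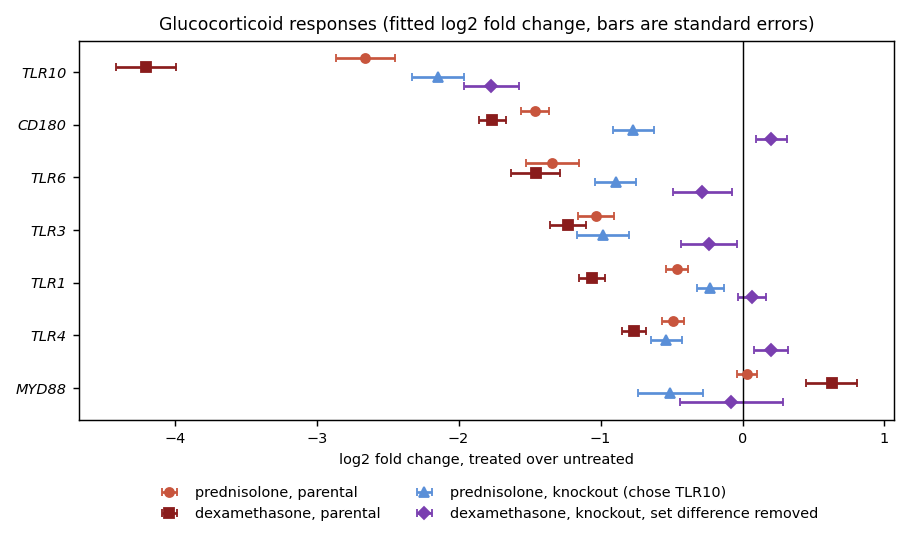
Fitted log2 fold change, treated over untreated (horizontal axis), for 7 members (vertical axis) in 4 comparisons; bars are standard errors. TLR10 has the lowest value in each comparison, from -1.77 in the knockout under dexamethasone to -4.20 in parental cells under dexamethasone. The knockout prednisolone contrast chose TLR10, and the knockout dexamethasone one uses the same untreated libraries, so TLR10 is a description in both. The knockout dexamethasone values of TLR1, TLR4 and CD180 lie at or above 0.

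In the knockout, prednisolone is the contrast that chose the family, and its values are descriptive; the fit called 41.7% of all genes there. TLR10 went from 4.97, 4.92 and 5.04 CPM to 1.22, 0.792 and 1.44 CPM, a log2 fold change of -2.15 ± 0.18. TLR3 (-0.98), TLR6 (-0.89), CD180 (-0.77), TLR4 (-0.54) and TLR1 (-0.23) were also lower in every treated library than in any untreated one. MYD88 overlapped between the groups (-0.51), and TLR2, TLR7 and TLR9 had too few counts to fit.

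Dexamethasone in the knockout had to be set against untreated knockout libraries of the other set. The shift between the untreated parental sets was subtracted, on the assumption that it would be the same in the knockout; the untreated knockout libraries are also those of the contrast that chose TLR10. Since TLR10 in those untreated libraries chose the family, its value is a description: 1.86, 2.33 and 2.63 CPM under dexamethasone and a change of -1.77 ± 0.19 fitted this way. Of the other 9 members 7 were tested, and 0 were called by edgeR or DESeq2, with 0 at an unadjusted p under 0.05, beside 40.0% of all genes called and 21.5% called lower. CD180 stood at 8.65, 8.42 and 7.72 CPM under dexamethasone and at 5.98, 6.18 and 6.49 CPM untreated, and its adjusted change was 0.20 ± 0.11 (edgeR adjusted p = 0.165). TLR1 was at 14.5, 13.4 and 14.1 CPM under dexamethasone against 10.7, 10.7 and 10.4 CPM untreated (adjusted change 0.06 ± 0.10, edgeR adjusted p = 0.65). TLR4 was at 23.9, 24.9 and 24.5 CPM against 12.7, 13.1 and 15.6 CPM (adjusted change 0.20 ± 0.12, edgeR adjusted p = 0.207). Without replicate 3 of the untreated knockout the TLR4 change was called (0.33, edgeR adjusted p = 0.0259). TLR3 (-0.24 ± 0.20) and TLR6 (-0.28 ± 0.21) did not pass the test either. The myeloid sum was 3.98 to 4.21 CPM in the untreated knockout and 8.43 to 10.6 CPM under dexamethasone, with CD33 going from between 2.63 and 2.81 to between 6.98 and 9.05 CPM, and its part in the TLR4 level was not tested.

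The untreated Nalm6 sets themselves differed in all 8 members tested, beside 50.2% of all genes called, 25.8% higher and 24.4% lower. The dexamethasone set was higher in TLR6 (0.72 ± 0.15), TLR10 (0.66 ± 0.13), TLR4 (0.63 ± 0.08), TLR1 (0.35 ± 0.07) and CD180 (0.22 ± 0.07). It was lower in TLR3 (-0.31 ± 0.10), MYD88 (-0.64 ± 0.19) and TLR7, which held 6 counts against 74. The calls for TLR3, MYD88 and CD180 were lost in at least 1 alternative each. Summed myeloid markers were 14.3 to 15.4 CPM in the dexamethasone set and 7.44 to 9.38 CPM in the other, without overlap, and their part was not tested. Set and any other difference between these libraries cannot be told apart.

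The next comparison asks how the targeted line differs from its parent. The answer for untreated cells depended on which untreated parental group was used. Against the first group, 3 of the 9 members other than TLR10 were higher in the knockout and 2 lower, beside 27.1% of all genes called, 15.3% higher and 11.8% lower. Against the dexamethasone set, a comparison chosen after seeing the data, none of those 5 calls remained: TLR1 was at 0.11, TLR3 at -0.33, TLR4 at 0.031 and TLR6 at 0.33 on the log2 scale (edgeR adjusted p from 0.104 to 0.839), TLR7 held 6 counts in either group, and CD180 was then called lower (-0.40, edgeR adjusted p = 0.0102). The values that follow are against the first group. TLR10 in these knockout libraries chose the family and is described only: it was at 4.97, 4.92 and 5.04 CPM, against 2.28 to 2.79 CPM in the first untreated parental group and 3.23 to 4.14 CPM in the other. TLR6 was at 3.44, 3.98 and 4.17 CPM against 2.16, 1.59 and 1.97 CPM (1.03 ± 0.14, edgeR adjusted p = 7.32e-04). TLR4 (0.65 ± 0.09) and TLR1 (0.45 ± 0.08) were also higher without overlap. TLR3 was lower, at 2.43, 2.60 and 3.44 CPM against 4.49, 4.22 and 4.82 CPM (-0.65 ± 0.14, edgeR adjusted p = 0.0072). TLR7 held 1, 2 and 3 counts in the knockout against 24, 28 and 22 in the parental libraries, a parental to knockout ratio of 6.78 with a counting interval of 2.97 to 19.1. CD180 (-0.19 ± 0.08, edgeR adjusted p = 0.109) did not pass the test. Nor did MYD88 (0.14 ± 0.23, edgeR adjusted p = 0.702), which was called without replicate 3 of the untreated knockout (0.42, edgeR adjusted p = 0.00149). Summed myeloid markers were 3.98 to 4.21 CPM in the untreated knockout and 7.44 to 9.38 CPM in the first parental group. Dendritic markers summed to 4.31 to 5.04 and 8.26 to 9.64 CPM, mostly FLT3 (3.79 to 4.21 and 7.24 to 8.28 CPM). B-lineage markers summed to 2729 to 2914 and 3031 to 3041 CPM, with single markers going both ways. PAX5 was lower in the knockout (512 to 633.5 and 704 to 710 CPM), and IGLL1 was higher (814 to 836 and 598 to 649 CPM). None of these ranges overlapped, and the part of these markers was not tested.

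Under dexamethasone the knockout and parental libraries had the same drug and dose, and none of them entered the contrast that chose TLR10. Here 5 of the 10 genes were higher in the knockout and MYD88 was lower, beside 56.6% of all genes called, 28.5% higher and 28.1% lower. TLR10 was at 1.86, 2.33 and 2.63 CPM in the knockout and at 0.185, 0.246 and 0.190 CPM in the parental cells, an 11-fold difference (log2 fold change 3.45 ± 0.25, edgeR adjusted p = 2.19e-10). TLR6 stood at 5.83, 5.30 and 4.44 CPM against 0.972, 1.08 and 1.33 CPM (2.21 ± 0.15, edgeR adjusted p = 7.32e-11). CD180 stood at 8.65, 8.42 and 7.72 CPM against 2.36, 2.53 and 2.40 CPM (1.77 ± 0.10, edgeR adjusted p = 2.99e-12). TLR4 (1.62 ± 0.06) and TLR1 (1.57 ± 0.08) were about 3.07-fold and 2.98-fold higher, and for all 5 genes each knockout library exceeded each parental one. TLR3 overlapped between the lines, at 2.26, 1.90 and 1.60 CPM against 1.41, 1.67 and 1.5 CPM (0.34 ± 0.17, edgeR adjusted p = 0.101), and was called without replicate 3 of the knockout (edgeR adjusted p = 0.046). MYD88 was at 16.3, 18.8 and 18.3 CPM against 25.7, 27.2 and 26.7 CPM (-0.56 ± 0.06, edgeR adjusted p = 2.85e-08), a call lost with all 11 groups fitted together (edgeR adjusted p = 0.156). Summed dendritic markers were 4.74 to 6.64 CPM in the knockout and 14.9 to 15.4 CPM in parental cells. Most of that sum was FLT3, at 4.23 to 6.01 and 14.4 to 14.8 CPM. T-lineage markers summed to 48.7 to 49.8 and 26.2 to 27.8 CPM, mostly LCK, at 43.5 to 44.4 and 17.8 to 18.8 CPM. BCL11B (4.03 to 5.20 and 6.11 to 6.81 CPM) and CD247 (0.223 to 0.478 and 2.02 to 2.18 CPM) went the other way. Mitochondrial transcripts were 0.828% to 0.885% and 1.23% to 1.25% of gene counts. None of these ranges overlapped, and their part was not tested. Whether these knockout and parental libraries were prepared together is not stated.

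**Figure D3:**
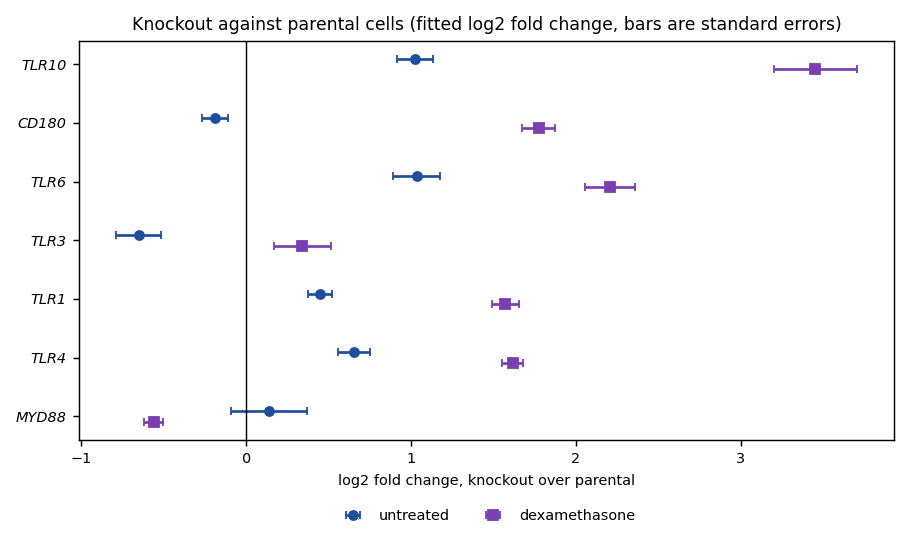
Fitted log2 fold change of the knockout over parental Nalm6 (horizontal axis) for 7 members, untreated and under dexamethasone; bars are standard errors. TLR10, CD180, TLR6, TLR3, TLR1 and TLR4 lie further right under dexamethasone, with CD180 moving from -0.19 to 1.77, and MYD88 lies further left.

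The difference between those differences was tested directly, in a contrast added after the values were known, which uses the untreated knockout libraries. It was called, and positive, for 5 of the 9 members other than TLR10, beside 13.7% of all genes called in that direction and 30.3% in either. CD180 had 1.96 ± 0.12 (edgeR adjusted p = 3.81e-09). TLR10 had 2.43 ± 0.27, given as a description since its untreated knockout values chose the family. TLR6 (1.17 ± 0.22), TLR1 (1.12 ± 0.11), TLR3 (0.98 ± 0.22) and TLR4 (0.96 ± 0.12) were also called, and TLR7 (0.87 ± 1.96) was not. MYD88 was -0.71 ± 0.26 (edgeR adjusted p = 0.0507) and was called with no filter, with unstranded counts (edgeR adjusted p = 0.0429), without replicate 3 of the untreated knockout (-0.99) and with the other untreated Nalm6 group (-1.36). Prednisolone and dexamethasone in the knockout share the untreated libraries, so their changes are not compared.

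CHIR-99021 changed 1 of the 10 genes in parental Nalm6, beside 7.88% of all genes called and 4.72% called lower. TLR1 fell to 6.19, 5.49 and 6.18 CPM from 7.90, 7.49 and 8.29 CPM (-0.41 ± 0.08, edgeR adjusted p = 0.0106), and without replicate 3 of the untreated group it did not pass (edgeR adjusted p = 0.0723). CD180 was at 5.45, 6.56 and 5.62 CPM, below every untreated library, but was not called (-0.29 ± 0.09, edgeR adjusted p = 0.0673). TLR10 (0.29 ± 0.13, edgeR adjusted p = 0.222), TLR4 (0.16 ± 0.08) and TLR6 (0.25 ± 0.15) had positive values and TLR3 (-0.20 ± 0.09) and TLR7 (-0.81 ± 0.27) negative ones, none past the test. Against the other untreated Nalm6 group, chosen after seeing the data, 4 members were called, all lower, and TLR4, TLR6 and TLR10 had negative values.

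CEM, the T-cell line, had few or no reads for 8 of the 10 genes. TLR4, TLR10 and CD180 were at 0 in all 3 untreated CEM libraries. Against a floor of 3 counts in each of these libraries, the untreated Nalm6 dexamethasone set was at least 181-fold, 51.0-fold and 110-fold higher. CD180 was at 0 in all 9 CEM libraries, TLR10 had 1 count and TLR4 2 counts. TLR6 had 6 counts in untreated CEM against 343, a ratio of 63.7 (counting interval 29 to 175). TLR1 had 31 counts in 9 libraries. TLR3 was at 0.997, 1.10 and 1.42 CPM in untreated CEM, below all Nalm6 untreated libraries (log2 fold change -1.63 ± 0.14, edgeR adjusted p = 2.34e-07). MYD88 was higher in CEM, at 35.1, 59.4 and 34.0 CPM (1.32 ± 0.25, edgeR adjusted p = 3.35e-04); against the other untreated Nalm6 group the difference was 0.71. Of all genes 77.5% were called between the lines, 40.2% higher and 37.3% lower in CEM; MYD88 was the 1 member called higher, and the other 6 members tested were called lower. TLR2 had 26 counts over the 9 CEM libraries.

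In CEM only TLR3 and MYD88 had enough reads to test. Neither was called by edgeR or DESeq2 under CHIR-99021, where 10.8% of all genes were called and 1 of the 2 had an unadjusted p under 0.05. Neither was called under prednisolone, where 45.1% were called and 0 of the 2 had an unadjusted p under 0.05. TLR3 was at 0.798, 0.988 and 0.723 CPM under CHIR-99021 (-0.44 ± 0.20, edgeR adjusted p = 0.19) and at 1.08, 0.980 and 0.855 CPM under prednisolone (-0.26 ± 0.20, edgeR adjusted p = 0.296). MYD88 was at 40.7, 43.6 and 40.1 CPM under prednisolone (-0.09 ± 0.14, edgeR adjusted p = 0.647), and without replicate 2 of the untreated group it was 0.23 and called. The prednisolone response of TLR3 was less negative in CEM than in Nalm6 by 0.78 ± 0.23 (edgeR adjusted p = 0.0138), beside 26.9% of all genes called and 14.7% called in that direction. That call was lost without replicate 1 of untreated CEM (edgeR adjusted p = 0.0512) or replicate 1 of CEM prednisolone (edgeR adjusted p = 0.0696) and with the other untreated Nalm6 group (0.49, edgeR adjusted p = 0.118), and since the doses were 10 µM and 5 µM, line and dose cannot be told apart.

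MYD88, the shared adaptor, had 1 library well below the others in 4 groups. It was at 26.5, 27.6 and 8.87 CPM under CHIR-99021 in Nalm6 (log2 fold change -0.39 ± 0.30, edgeR adjusted p = 0.493) and at 32.9, 39.0 and 16.6 CPM in the untreated knockout. It was at 9.84, 19.9 and 21.3 CPM in the untreated dexamethasone set and at 44.6, 34.2 and 20.9 CPM in CEM under CHIR-99021. The lowest library in each of these groups held 0.335, 0.505, 0.494 and 0.613 of its group's median. The same 4 libraries had the lowest share of mitochondrial transcripts in their groups, at 0.444%, 0.573%, 0.761% and 0.726% of gene counts. In 8 of 11 groups the library lowest in MYD88 was also lowest in that share, and its part in the MYD88 values was not tested. Within their groups, the same 4 libraries also differed most from their replicates over all genes, by chi-square per degree of freedom. In the order above, pairs holding them stood at 37.5 and 39.0, 26.1 and 29.3, 9.73 and 16.7, and 12.2 and 6.58. The remaining pair of each group stood at 5.26, 15.8, 2.82 and 4.05. In the knockout under prednisolone, pairs holding replicate 1 also stood at 12.33 and 15.65, and the remaining pair at 6.925. The part of this spread in the MYD88 values was not tested either.

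**Figure D4:**
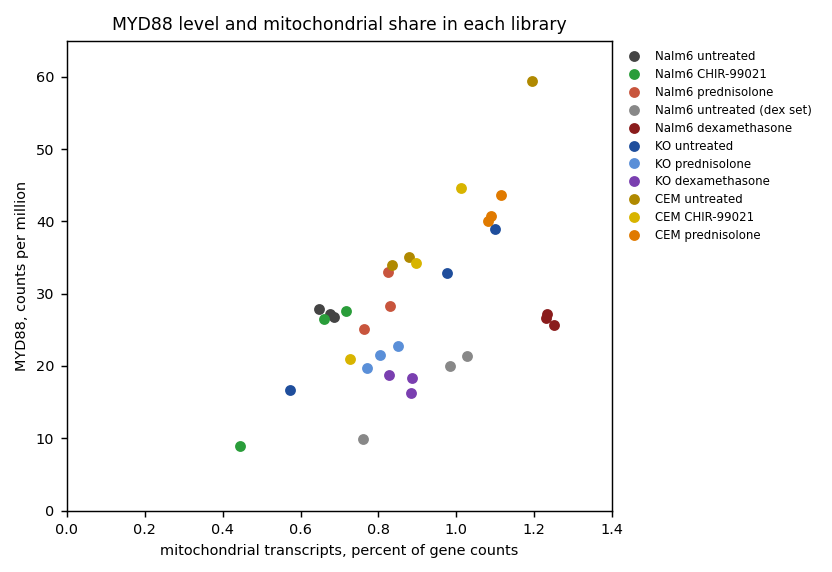
MYD88 level (vertical axis, CPM) against mitochondrial transcripts as a percent of gene counts (horizontal axis) in the 33 libraries, coloured by group. The library lowest in MYD88 has the lowest share in 8 of 11 groups, and the Nalm6 CHIR-99021 library at 8.87 CPM has the lowest share of all, 0.444%.

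The wider pathway was described with a list of 62 genes in 8 classes. Under prednisolone in parental Nalm6, 19 of 47 tested rose and 13 fell, and the list's median log2 fold change was 0.04, against 0.03 over all genes; 68.1% of the list was called, against 54.8% of all genes. Among the partners, LY86 (MD-1), which holds CD180 at the surface, went from 4.70, 5.00 and 5.17 CPM to 1.77, 2.64 and 2.46 CPM (-1.10 ± 0.12, edgeR adjusted p = 8.24e-07). LY96 (MD-2), the TLR4 partner, moved the other way, from 1.82, 1.65 and 1.34 CPM to 3.43, 3.09 and 2.92 CPM (0.92 ± 0.14). LY96 was also called higher in the untreated dexamethasone set than in this untreated group (1.12). Its direction under prednisolone may thus depend on the untreated group. Among the adaptors, TASL, which links endosomal receptors to IRF5, fell from 15.7, 14.1 and 14.4 to 5.30, 4.74 and 4.27 CPM (-1.68 ± 0.08, edgeR adjusted p = 1.90e-11). IRF5 itself, a transcription factor downstream of MYD88, fell by 1.27 ± 0.27 from levels under 1 CPM. UNC93B1, which carries receptors to endosomes, stayed between 105 and 115 CPM (-0.06 ± 0.04, edgeR adjusted p = 0.259). Of the kinases and ubiquitin ligases 9 of 16 tested rose and 2 fell (68.8% called), with TRAF3 at -0.61. Of the target genes, NFKBIA, the inhibitor of NF-kB that glucocorticoids also raise, rose by 1.45 ± 0.04, while IL1B fell by 1.94 ± 0.12 and TNF rose by 0.88 ± 0.13. CCL4, a chemokine gene, had 3, 0 and 2 counts untreated and 10, 21 and 22 under prednisolone, a called rise. The list thus held changes in both directions.

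Under dexamethasone 13 of 47 rose and 18 fell (median -0.02, against 0.02 over all genes; 66.0% called, against 60.5%), with LY86 at -1.42 ± 0.12, TASL at -1.92 ± 0.08 and NFKBIA at 1.56 ± 0.04. LY96 did not pass the test (0.28 ± 0.12, edgeR adjusted p = 0.0578). TNF was lower here (-0.37, edgeR adjusted p = 0.027), and CCL4 was at 0 in the 3 untreated libraries and at 16, 15 and 15 counts under dexamethasone, a called rise. Under CHIR-99021 3 of 47 rose and 3 fell (12.8% called, against 7.88%), and TASL rose from a highest untreated value of 15.7 CPM to 20.7, 21.1 and 22.7 CPM (0.55 ± 0.06, edgeR adjusted p = 7.75e-04). In the untreated knockout 5 of 45 were higher and 12 lower (37.8% called, against 27.1%; 9 genes called with unstranded counts and 10 with the replicate block), led by the target genes IL1B (-2.42 ± 0.15) and TNF (-2.18 ± 0.20) on the low side and the adaptors TICAM2 (1.4) and TIRAP (0.99) on the high side. TIRAP was also called higher in the untreated Nalm6 dexamethasone set than in the first untreated group (0.93), close to its knockout value. Its knockout difference may thus depend on the untreated group. Between the lines under dexamethasone 15 of 45 were higher in the knockout and 22 lower (82.2% called, against 56.6%). All 4 target genes tested were called lower in the knockout: CCL4 (-6.67, from 16, 15 and 15 parental counts), TNF (-2.37), IL1B (-1.37) and NFKBIA (-0.85). LY86 was higher in the knockout, at 2.78, 4.51 and 3.21 CPM against 1.71, 1.89 and 2.02 CPM (0.90 ± 0.16), as was TASL (0.80 ± 0.10). For the difference in dexamethasone response, 10 of 47 were called with positive values and 12 with negative ones (46.8% called, against 30.3%). It was 1.01 ± 0.22 for LY86 (edgeR adjusted p = 0.00219) and 1.30 ± 0.14 for TASL, both called. The negative calls included TICAM1 (-0.75) and NFKBIA (-0.61). In CEM LY86 was at 0 in every library. Prednisolone there raised 17 of 43 and lowered 7 (55.8% called, against 45.1%), among them the kinase-like brake IRAK3, from 0.238, 0.307 and 0.443 CPM to 3.02, 4.07 and 3.65 CPM (3.44 ± 0.21), and UNC93B1 from 5.53, 5.33 and 4.85 to 11.6, 11.8 and 11.3 CPM (1.11 ± 0.08).

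**Figure D5:**
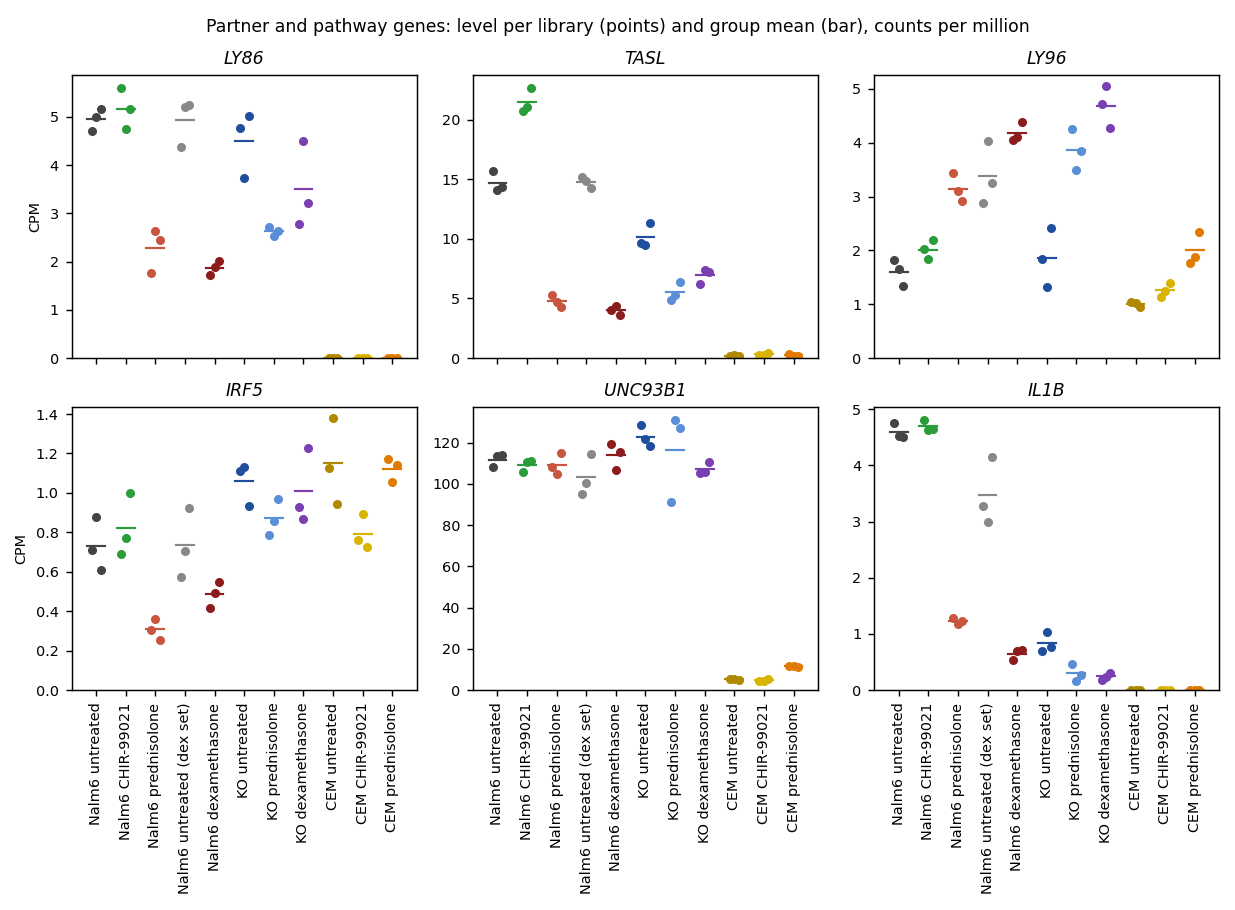
Level of 6 pathway genes in each library (vertical axis, CPM, starting at 0; points are libraries, bars are means of 3) by group (horizontal axis). LY86 and TASL are lower in each glucocorticoid-treated parental library than in its untreated group, LY86 and IL1B are at 0 in CEM, and UNC93B1 stays between 91.1 and 131 CPM in the Nalm6 and knockout libraries.

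Across the means of the 8 Nalm6 and knockout groups, the genes whose pattern most resembled that of TLR10 were RAD54B (Pearson r 0.995 of log2(CPM + 0.5)), VPREB1 (0.990), TMEM186 (0.989), TMEM237 (0.986) and TGFBRAP1 (0.979). Of the members, CD180 had 0.894, TLR6 0.791, TLR3 0.667, TLR1 0.633, TLR4 0.593, TLR2 0.315, TLR7 0.195 and MYD88 -0.414. Of 4 pathway genes computed, LY86 had 0.931, TASL 0.812, IRF8 0.0191 and BTK -0.422. These correlations run over 8 means that share libraries, depth and 2 untreated sets, and are a description with no test. The order of TLR10 levels was untreated knockout, untreated dexamethasone set, CHIR-99021, untreated Nalm6, knockout dexamethasone, knockout prednisolone, parental prednisolone and parental dexamethasone, and from the untreated dexamethasone set to knockout dexamethasone each group overlapped the next.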

How the data were processed

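The members and gene lists were chosen with earlier results of these data known. The authors deposited raw counts per gene, in the layout that STAR writes per the file headers, with 3 strand columns. Column 4 was used because its gene total was 12.3 to 15.3 times that of column 3. The submitters' processing notes name the build hg19, Bowtie2 and DESeq2 without roles; versions and read filters are not given in the sources used here. The 4 rows that name no gene stayed out of totals and tests: as shares of all counts, unmapped reads made up 2.84% to 11.2%, those in no gene 18.4% to 32.7%, multimapping ones 4.83% to 7.55% and ambiguous ones 4.70% to 7.45%. Reads mapping to several places were thus not counted, which leaves near-identical genes uncertain. Levels are counts scaled to 1000000 gene counts (CPM), divided by GENCODE v29 exon length in kilobases for comparisons between genes. No replicates agreed within sampling noise (chi-square per degree of freedom 1.77 to 39.0), so all were kept.

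Comparisons used edgeR 4.0.16 (R 4.3.3) on only the groups compared, with filterByExpr, TMM and the two-sided quasi-likelihood F test. The p-values were adjusted by Benjamini-Hochberg over all genes tested, and a gene was called at an adjusted p under 0.05. Standard errors come from the F statistic. The fit was tested on simulated data. The alternatives were DESeq2 1.42.0, RLE size factors, omitting the filter, requiring 10 counts in each library, unstranded counts, a replicate block, a fit of all 11 groups, the other untreated Nalm6 group for CEM, and leaving out single libraries. The text names the 10 members, TLE1, the 5 genes most like TLR10 and, per comparison and class of the pathway list, up to 4 called genes with the largest changes. Other pathway values that were not called (UNC93B1, LY96), the likeness of LY86, TASL, IRF8 and BTK, the exchange of the untreated Nalm6 groups outside the CEM comparison, and the contrast of line differences between dexamethasone and no treatment were chosen after their values were seen.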

Additional observations from a re-analysis of the deposited data

Results flagged for a closer look

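The difference between the knockout and parental Nalm6 was itself different under dexamethasone and untreated for 5 receptors, by a direct test (edgeR, 3 libraries in each of 4 groups). The log2 differences, dexamethasone minus untreated, were 1.96 for CD180, 1.17 for TLR6, 1.12 for TLR1, 0.98 for TLR3 (edgeR adjusted p = 0.0029) and 0.96 for TLR4. These calls held in every alternative that gave a value for them. The contrast was chosen after seeing the data and uses the untreated knockout libraries of the contrast that chose the family, so TLR10 is left out here. It takes the dexamethasone libraries of both lines as 1 set, which the labels do not state.

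The prednisolone response of TLR3 differed between CEM and parental Nalm6 by 0.78 (edgeR adjusted p = 0.0138), with the doses also different; with the other untreated Nalm6 group it was 0.49 (edgeR adjusted p = 0.118).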

How the results depend on the processing

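Of the members' fold changes under the alternatives, 1175 kept their direction and side of the threshold, 22 no longer passed, 18 newly passed and 16 changed sign. In parental Nalm6 the calls of TLR1, TLR3, TLR4, TLR6, TLR10 and CD180 under both glucocorticoids were made in every alternative that gave a value (TLR10 under dexamethasone has none at 10 counts in every library), except TLR4 under dexamethasone with the other untreated Nalm6 group. Exchanging the untreated Nalm6 groups was chosen after seeing the data outside the CEM comparison. It moved the members called from 6 to 2 in the untreated knockout, counts that include TLR10, which is described only there. It also moved them from 1 to 4 under CHIR-99021 in Nalm6 (pathway genes from 6 to 22, all genes from 1425 to 7429) and from 1 to 2 in the CEM minus Nalm6 response. Under CHIR-99021 it turned TLR3 to 0.12, TLR4 to -0.47, TLR6 to -0.46, TLR10 to -0.36 and MYD88 to 0.25. Replicate numbers did not pair the libraries (correlations of same-numbered deviations -0.083 to 0.081); with the replicate block, the pathway genes called in the untreated knockout went from 17 to 10 (9 with unstranded counts), and all genes called under CHIR-99021 in Nalm6 from 1425 to 925 (2320 with no filter); no other count of members or pathway genes moved by over 1.5 times with the block.

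Without single libraries, members called under CHIR-99021 in Nalm6 ranged from 0 to 2 (main value 1; 3 with no filter): 0 without replicate 3 of the untreated group and 2 without replicate 2 of the CHIR-99021 group. Under dexamethasone in the knockout with the set difference removed they ranged, TLR10 included, from 1 to 2, with 2 without replicate 3 of the untreated knockout. They were 3 without that library and replicate 1 of the untreated dexamethasone set, an alternative chosen after seeing the data. Under prednisolone in CEM they ranged from 0 to 1 (1 without replicate 2 of untreated CEM), and for the CEM minus Nalm6 response from 0 to 1 (0 without replicate 1 of untreated CEM or of CEM prednisolone). CHIR-99021 in CEM gave 1 member with no filter and 5 pathway genes, in place of 9, with all groups fitted together; CEM against Nalm6 gave 2 members at 10 counts in every library, where fewer genes are tested. All genes called without single libraries ranged from 409 to 2708 under CHIR-99021 in Nalm6, from 2804 to 6732 in the untreated knockout (4655) and from 1001 to 1948 under CHIR-99021 in CEM (1865).

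Signs changed for values that the main tests had not called, and 3 of them were then called (TLR4 and TLR6 above, and MYD88 under prednisolone in CEM, 0.23 without replicate 2 of the untreated group). Without libraries, MYD88 ranged from -0.078 to 0.091 under prednisolone in Nalm6, from -0.12 to 0.42 in the untreated knockout, from -0.66 to 0.21 under dexamethasone in the knockout (also 0.0024, 0.048 and 0.14), from -0.23 to 0.23 under prednisolone in CEM and from -0.24 to 0.21 in the CEM minus Nalm6 response. TLR1 in that response ranged from -0.13 to 0.75, and TLR7 in the knockout under dexamethasone was 1.64 with unstranded counts. The causes were not tested. Low counts limit TLR7, TLR2 and TLR9 in Nalm6 and the 8 members too low to test within CEM. TLR9 was at 0 in all 24 Nalm6 and knockout libraries, and CD180 was at 0 in all 9 CEM libraries.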
